A study of Mus musculus with 2 samples.

Results

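Complement components and receptors were described in CD11b+ cells of mouse pancreatic tumours grown under the skin. The 9 genes were chosen by symbol, from a list of C1q chains (C1qa, C1qb, C1qc), C3, alternative pathway proteins (Cfb, Cfp) and receptors (C3ar1, C5ar1, Vsig4). All 9 were among the 49585 gene identifiers of the count table, and all 9 had at least 1000 reads over both libraries. The Nrp2 knockout group was NRP2f/fCSF1R-iCRE mice on a BL6 background, given tamoxifen by injection every day once their tumours could be felt. The control group carried the same floxed Nrp2 alleles and the same inducible Cre, and the labels name no tamoxifen for it, so the drug and the deletion of Nrp2 cannot be told apart. The Csf1r promoter that drives the Cre is active in monocytes and macrophages. CD11b (Itgam), by which magnetic beads selected the cells, is carried by these cells, by granulocytes and by part of the dendritic cells. In which of the selected cells the Cre acted was not tested. Tumours were taken after 15 days, and RNA of 3 animals was pooled into 1 library per group.

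Complement is a cascade of proteases that coats targets for uptake and attracts leukocytes. C1q, assembled from A, B and C chains, starts the classical pathway when it binds antibody or dying cells, and its genes are known in mouse as macrophage genes. All routes meet at C3, whose fragments mark surfaces or, as C3a, signal through C3ar1. Factor B (Cfb) and properdin (Cfp) form and stabilise the alternative pathway convertase, C5ar1 senses C5a, and Vsig4, also called CRIg, is a receptor of tissue macrophages that binds C3 fragments.

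The knockout library held 68554172 reads and the control library 64153676, with 1 library per group, so the spread between animals is unknown and p-values cannot be given. Nrp2 had 1017 reads in the knockout library and 9686 in the control library, 9.70-fold lower. Levels are given as CPM, counts scaled to the library size with TMM factors, and ratios as knockout over control on the same scale. Each ratio has a 95% Clopper-Pearson (exact) interval, computed on reads divided by the reads that 1 captured fragment was worth (24 in the knockout and 47 in the control library). They cover counting error only. Macrophage markers were abundant in both libraries, with none of 10 at 0. Their summed level was 26504 CPM in the knockout library and 18980 CPM in the control library. Apoe alone gave 70.6% of their reads in the knockout and 65.3% in the control library. Of the 10 markers 1 was higher by at least 2-fold and 0 lower, and the interval lay above 1 for 6 and below 1 for 4. All 10 had 1000 or more reads in total. Among the 9054 genes of that depth 4.53% were higher and 4.0% lower by the 2-fold rule. Their interval lay above 1 for 19.0% and below 1 for 15.1%. Monocyte markers summed to 510 and 1132 CPM in the knockout and control libraries, with 1 of 8 higher by at least 2-fold and 5 lower. By the same rule 10.9% of the 14420 genes with 50 or more reads in total were higher and 14.7% lower. In bulk RNA, fewer cells of a type and less RNA per cell cannot be told apart.

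The promoters of 3 genes are shown because their genes span the pattern described below. C1qb stands for the adjacent C1q chain genes, whose ratios lay near 1, C3 for the component that was moderately higher, and Vsig4 for the gene with the widest difference. Each run is the 250 bases before the RefSeq start (GRCm38.p6), read 5′ to 3′ on the minus strand that carries the gene: chr4:136886201-136886450 for C1qb, chr17:57228137-57228386 for C3 and chrX:96293439-96293688 for Vsig4. In the GENCODE annotation none of these windows overlaps a gene. Capitals mark matches, on either strand, to the PU.1 core GAGGAA, the MAF half-site TGCTGA or the C/EBP motif TTGCNNAA.
C1qb: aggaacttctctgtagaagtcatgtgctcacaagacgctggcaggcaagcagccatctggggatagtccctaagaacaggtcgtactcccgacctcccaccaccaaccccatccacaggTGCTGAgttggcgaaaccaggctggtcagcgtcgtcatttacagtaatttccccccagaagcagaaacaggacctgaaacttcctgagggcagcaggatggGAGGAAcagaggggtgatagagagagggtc
C3: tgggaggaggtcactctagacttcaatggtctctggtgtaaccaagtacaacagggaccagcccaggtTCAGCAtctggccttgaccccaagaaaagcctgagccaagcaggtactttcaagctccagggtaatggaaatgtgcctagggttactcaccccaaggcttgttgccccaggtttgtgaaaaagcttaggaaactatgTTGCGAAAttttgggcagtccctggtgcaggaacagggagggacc
Vsig4: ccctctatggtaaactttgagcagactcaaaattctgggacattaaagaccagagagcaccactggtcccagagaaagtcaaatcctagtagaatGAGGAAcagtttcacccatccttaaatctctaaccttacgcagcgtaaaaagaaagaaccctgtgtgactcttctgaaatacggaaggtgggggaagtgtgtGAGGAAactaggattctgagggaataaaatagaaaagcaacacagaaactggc

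The C1qb window held 1 PU.1 core and 1 MAF half-site. The C3 window held 1 MAF half-site and, 45 bases before the start, 1 C/EBP match, and the Vsig4 window held 2 PU.1 cores. RefSeq promoters were found for 7 of the 9 genes, of which 3 held the PU.1 core, 4 the MAF half-site and 1 the C/EBP motif. Among 32851 promoter windows of the same length, 23.3%, 16.1% and 9.56% held them. An interferon-response element (GAAA, any 2 bases, GAAA) was in 0 of the 7 and in 2.98% of all windows. None of these motifs overlapped another in the windows shown, and a match is a description of the letters only.

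Of the 9 genes, 1 was at least 2-fold higher in the knockout library and 0 at least 2-fold lower. Over all 14420 genes with at least 50 reads, those shares were 10.9% higher and 14.7% lower, and among the 9054 genes with at least 1000 reads, as all 9 had, 4.53% and 4.0%. The median log2 ratio, knockout over control, was 0.06 for the 9 genes and -0.01 for all genes tested. The interval excluded 1 for 8 of the 9, with 4 genes higher and 4 lower. The intervals of C1qc and C5ar1 end close to 1. With reads per fragment set 2 times as high both include 1, which leaves 3 genes higher and 3 lower, and with DESeq2 size factors that of C5ar1 includes 1, which leaves 3 lower. Such an interval was found upward for 12.7% and downward for 11.0% of all genes tested. Among the 2548 genes with at least 10000 reads, a depth that 7 of the 9 reached, it was found for 31.3% upward and 24.2% downward.

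**Figure D1:**
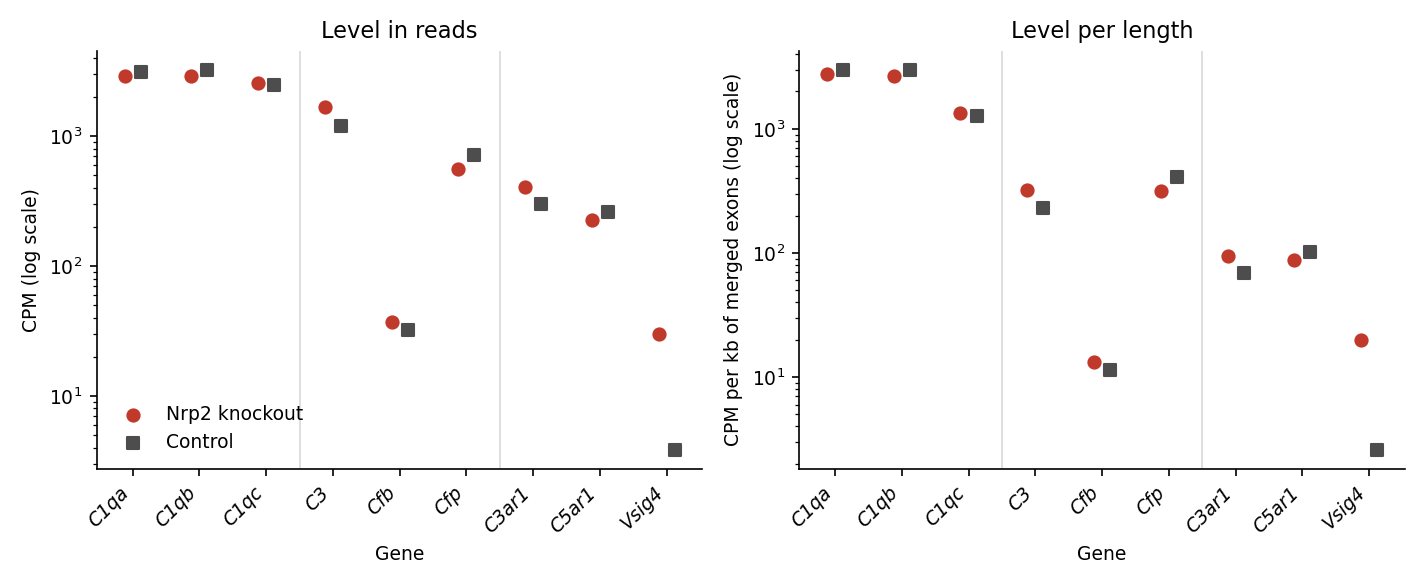
Level of each complement gene in the Nrp2 knockout library (red circles) and the control library (grey squares), as CPM (left) and as CPM per kb of merged exons (right), both on log axes, with 1 pooled library per group. The 3 C1q genes lie near the top in both libraries, at 2578 to 2890 CPM in the knockout and 2474 to 3231 CPM in the control library, and Vsig4 stands at 29.8 and 3.85 CPM.

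The C1q chains were the most abundant of the 9 genes and, with TMM scaling, differed little between the libraries. C1qa, which encodes the A chain, had 192679 reads (2879 CPM) in the knockout library and 204636 reads (3114 CPM) in the control library. It was 1.08-fold lower, with an interval of 1.04 to 1.12. Its log2 ratio was -0.59 when the libraries were scaled to the summed macrophage markers. Scaled to Csf1r, a setting chosen after seeing the data, it was higher (log2 ratio 0.14). C1qb, for the B chain, had 193431 reads (2890 CPM) in the knockout and 212349 reads (3231 CPM) in the control library. It too was lower, by 1.12-fold (1.08 to 1.16), with a log2 ratio of -0.64 under macrophage marker scaling, and higher under Csf1r scaling (0.10). C1qc, for the C chain, had 172495 reads (2578 CPM) in the knockout library and 162573 reads (2474 CPM) in the control library, a ratio of 1.04 (1.0004 to 1.09). Its direction turned under total-count scaling (log2 ratio -0.01), upper-quartile scaling (-0.0011) and scaling to macrophage markers (-0.42). Together the chains took 0.815% of all reads in the knockout library and 0.903% in the control library.

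The C1q genes lie side by side on the minus strand of chromosome 4 (GRCm38), C1qb at 136880129 to 136886187, C1qc at 136889804 to 136893065 and C1qa at 136895917 to 136898803. Gaps of 3616 and 2851 bases separate them. A ratio taken within a library is free of library scaling. By that measure C1qc stood 1.16-fold higher against C1qb in the knockout than in the control library (1.10 to 1.23), and C1qa against C1qb gave 1.03 (0.981 to 1.09). The level per length in the knockout library was 2768 CPM per kb for C1qa, 2657 for C1qb and 1335 for C1qc. In the control library it was 2994, 2970 and 1281 CPM per kb. The lower level of C1qc depends on the length used. Its merged exons span 1931 bases but its longest transcript 1203, and per kb of transcript C1qa exceeded C1qc 1.29 times in the knockout and 1.46 times in the control library, instead of 2.07 and 2.34 times.

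C3 was higher in the knockout library, and Cfp was lower. C3 had 111334 reads (1664 CPM) in the knockout library and 77700 reads (1182 CPM) in the control library, 1.41-fold higher (1.33 to 1.49). Scaled to the summed macrophage markers, its log2 ratio was 0.02 (-0.06 to 0.10), and the interval includes 0. The ratio of C3 was above that of 81.1% of the genes with at least 1000 reads. Against the summed C1q chains C3 stood 1.49-fold higher in the knockout library (1.40 to 1.58). Cfb, the protease of the alternative convertase, had 2482 reads (37.1 CPM) in the knockout and 2127 reads (32.4 CPM) in the control library, a ratio of 1.15, and 1 lies inside its interval of 0.801 to 1.66. Against C3 it stood at 0.814 in the knockout library (0.572 to 1.16), which includes 1. The annotation holds a second gene, Gm20547, whose exons cover 79.5% of the exon bases of Cfb and which had 0 reads in both libraries. The sources used here do not say how reads in shared exons were assigned, so the level of Cfb is uncertain.

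Cfp, which encodes properdin, was lower. It had 36958 reads (552 CPM) in the knockout library and 46541 reads (708 CPM) in the control library, 1.28-fold lower (1.18 to 1.39). Its log2 ratio was -0.83 (-0.95 to -0.72) when scaled to the summed macrophage markers. Scaled to Csf1r it was -0.10 (-0.22 to 0.015), and that interval includes 0. Against C3, Cfp stood 1.80-fold lower in the knockout library (1.64 to 1.99). Per length, C3 and Cfp were near each other in the knockout library (323 and 318 CPM per kb), and their order turned there when the longest transcript set the length. In the control library Cfp was above C3, at 408 and 230 CPM per kb. C3 lies on chromosome 17 at 57203970 to 57228136, Cfb on chromosome 17 at 34856374 to 34862518 and Cfp on the X chromosome at 20925454 to 20931555, all on the minus strand.

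Of the anaphylatoxin receptors, C3ar1 was higher and C5ar1 slightly lower. C3ar1, the C3a receptor (chromosome 6, 122847138 to 122856161, minus strand), had 26990 reads (403 CPM) in the knockout library and 19543 reads (297 CPM) in the control library, 1.36-fold higher (1.21 to 1.52), a direction lost when scaled to macrophage markers (log2 ratio -0.04). C5ar1, the receptor for C5a (chromosome 7, 16246743 to 16259540, minus strand), had 15187 reads (227 CPM) in the knockout and 17146 reads (261 CPM) in the control library. It was 1.15-fold lower, with an interval of 1.01 to 1.31 that begins close to 1. Its log2 ratio was -0.68 when scaled to the summed macrophage markers, and it was higher under Csf1r scaling (log2 ratio 0.06). Its log2 interval was -0.38 to 0.00016 with DESeq2 size factors and -0.47 to 0.07 with reads per fragment 2 times as high. C3ar1 against C5ar1 was 1.56-fold higher in the knockout library (1.31 to 1.85). Per length C3ar1 was the higher of the pair in the knockout library (93.7 and 88.3 CPM per kb) and C5ar1 in the control library (69.1 CPM per kb for C3ar1 and 102 for C5ar1). The ratio of C3 to its receptor gene C3ar1 was 4.13 reads of C3 per read of C3ar1 in the knockout library and 3.98 in the control library. The interval of the ratio between them, 0.915 to 1.18, includes 1.

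Vsig4 gave the widest difference of the 9 genes. It had 1993 reads in the knockout library and 253 in the control library, or 29.8 and 3.85 CPM, and was 7.74-fold higher (3.28 to 23.2). The reads stand for about 83.0 fragments in the knockout library and 5.38 in the control library. On undivided reads the interval was 6.78 to 8.85. An interval wholly past 2-fold upward was found for 0.853% of all genes tested and for 1.2% of those with at least 1000 reads, and Vsig4 was the only one of the 9 with such an interval. Its ratio was above that of 99.7% of the genes with at least 1000 reads. Vsig4 lies on the X chromosome at 96247203 to 96293438 on the minus strand, and no other annotated gene overlaps it. Against the C1q chains it stood 8.17-fold higher in the knockout library (3.42 to 19.5). Its level per length stayed low, at 20.1 CPM per kb in the knockout library, below C5ar1 at 88.3.

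**Figure D2:**
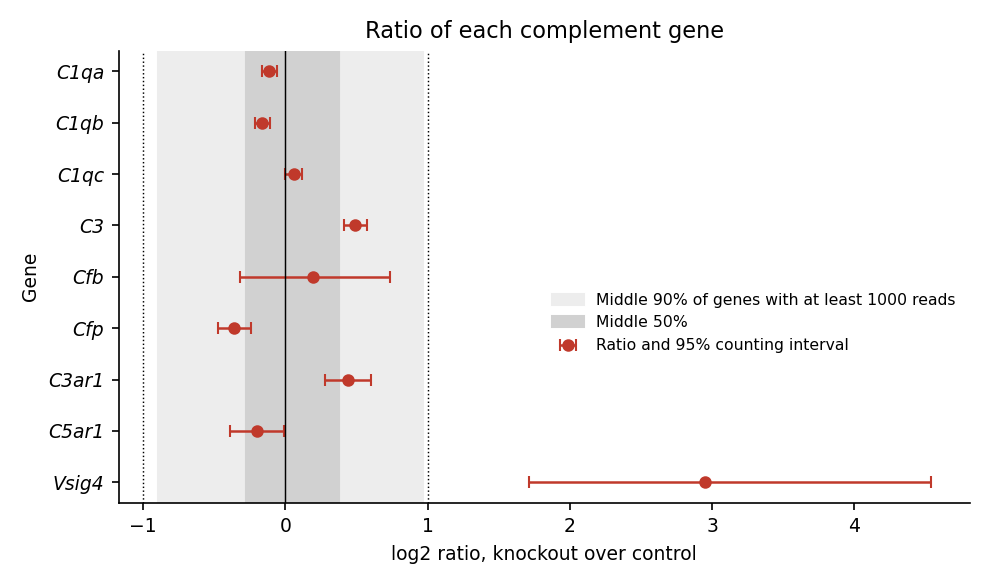
Log2 ratio, knockout over control, of each of the 9 genes (points) with the 95% counting interval (bars); grey bands hold the middle 50% and 90% of the 9054 genes with at least 1000 reads, and dotted lines mark 2-fold. Vsig4 lies at 2.95, past the band, and the other 8 lie between -0.36 and 0.49, within the middle 90%.

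In order of level per length, C1qa, C1qb and C1qc came first in both libraries. C3, Cfp, C3ar1, C5ar1, Vsig4 and Cfb followed in the knockout library, and Cfp, C3, C5ar1, C3ar1, Cfb and Vsig4 in the control library. The level of C1qa was 1.04 times that of C1qb in the knockout library and 1.01 times in the control library, so their order is not separated by much. Among all genes of the table C1qa ranked 13 by level per length in the knockout and 12 in the control library, whereas Vsig4 ranked 2299 and 8337.

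The wider pathway was read through lists of 60 complement genes, of which 37 had at least 50 reads. Of those, 2 were higher in the knockout library by at least 2-fold and 6 lower (median log2 ratio -0.05), beside the 10.9% and 14.7% of all genes. With at least 1000 reads 27 genes were left, 2 higher and 2 lower. In the classical pathway list 0 of 11 measured genes were at least 2-fold higher and 1 lower, C1s2 with 18 and 63 reads in the knockout and control libraries, which is below the 3 fragments that a count of 0 allows (72 and 141 reads). The proteases C1ra and C1s1, which C1q carries, were at ratios of 1.29 (0.944 to 1.78) and 1.34 (0.759 to 2.49). C4b, a complement C4 gene, had 41053 reads in the knockout and 31306 in the control library, a ratio of 1.29 (1.18 to 1.41), and its near-identical copy C4a could share reads with it. C1ra, C1s1 and C4b were named after their values were seen, as were C1s2 above and Masp1, Cd46 and Susd4 below.

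In the lectin pathway list 3 of 9 genes had enough reads, with 0 at least 2-fold higher and 1 lower. Of all genes tested 10.9% were higher and 14.7% lower by that rule. Fcna, ficolin A, a lectin that binds sugars on microbes, had 12184 reads in the knockout library and 6384 in the control library, 1.87-fold higher (1.55 to 2.28). Colec12, a scavenger receptor with a collectin domain, was at a ratio of 1.07 (0.692 to 1.701). The gene counted as lower was Masp1, with 0 reads in the knockout and 50 in the control library, both under the floor. The lectins Mbl1 and Mbl2 and the protease Masp2 had 0 reads in both.

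The alternative pathway list held the other gene past 2-fold. Cfd, factor D or adipsin, the protease that cleaves factor B, had 3027 reads (45.2 CPM) in the knockout library and 253 reads (3.85 CPM) in the control library, 11.7-fold higher (5.04 to 35.0). Adipocytes are a known source of this protein. Of the 8 adipocyte markers, 6 had at least 50 reads and all of these 6 were at least 2-fold higher, beside 10.9% of all genes tested. The interval lay above 1 for only 2 of them. Their median log2 ratio was 8.21, and 1.04 with counts of 0 taken as 3 fragments. The summed level of the list was 35.4 CPM in the knockout and 1.63 CPM in the control library. Car3, the most counted of these markers, had 1179 reads in the knockout and 50 in the control library, 23.2-fold higher (4.14 to 773). Adipoq, named after its values were seen, had 454 reads in the knockout and 0 in the control library, and Lep and Adrb3 were at 0 in both. The part of adipocyte RNA in the ratio of Cfd, or in that of C3, which adipocytes also make, was not tested.

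Terminal components were barely detected, apart from C6. C6, a subunit of the membrane attack complex, had 3373 reads in the knockout library and 5849 in the control library, 1.77-fold lower (1.38 to 2.26). Hc, which encodes C5, had 41 and 44 reads in the knockout and control libraries, both under the floor, and C7, C8a, C8b and C9 had 0 in both. Of 7 genes listed 3 had at least 50 reads, with 0 at least 2-fold higher or lower, beside 10.9% and 14.7% of all genes tested.

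Of 8 measured complement receptor genes, 1 was at least 2-fold higher, Vsig4, and 2 were at least 2-fold lower. All 8 had at least 1000 reads, and among genes of that depth the shares were 4.53% higher and 4.0% lower. Itgax, the alpha chain of complement receptor 4 (CD11c), had 20499 reads in the knockout library and 42082 in the control library, 2.09-fold lower (1.90 to 2.30). C5ar2, the second C5a receptor, had 399 and 1025 reads in the knockout and control libraries, 2.62-fold lower (1.32 to 5.28). It lies 2588 bases from C5ar1, and against C5ar1 it stood 2.28-fold lower in the knockout library (1.19 to 4.36). Itgam, the alpha chain of complement receptor 3 and the antigen of the selection, was 1.44-fold higher (1.28 to 1.61), and its partner Itgb2 1.26-fold higher (1.18 to 1.35). Cd93, a surface lectin once described as a C1q receptor and named after its values were seen, was 1.75-fold higher (1.51 to 2.03). Cr2, a receptor of B cells, had 0 reads in both. Conventional dendritic cell markers, whose cells carry Itgax, summed to 136 CPM in the knockout and 409 CPM in the control library. Of 8 markers 6 were lower by at least 2-fold and 0 higher, beside 14.7% and 10.9% of all genes tested. Xcr1, named after its values were seen, had 0 reads in the knockout and 111 in the control library. Both counts are under the floor, and its interval includes 1. The part of dendritic cell RNA in the ratio of Itgax was not tested.

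Among the regulators of complement, 2 fluid-phase genes had an interval below 1, beside 11.0% of all genes tested. Clu, clusterin, was 1.59-fold lower (1.28 to 1.97). Serping1, the C1 inhibitor, named after its values were seen, had 742 reads in the knockout library and 1282 in the control library, 1.76-fold lower (1.01 to 3.04). Of 12 fluid-phase regulators 3 had at least 50 reads, with 0 at least 2-fold higher or lower. Of 8 membrane regulators 5 did, with 0 higher and 2 lower, Cd46 and Susd4, whose intervals include 1. Of all genes tested 10.9% were at least 2-fold higher and 14.7% lower. Cr1l, the rodent membrane regulator Crry, was at a ratio of 1.05 (0.839 to 1.32), and Cd55, which speeds convertase decay, at 1.81 (0.991 to 3.52).

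**Figure D3:**
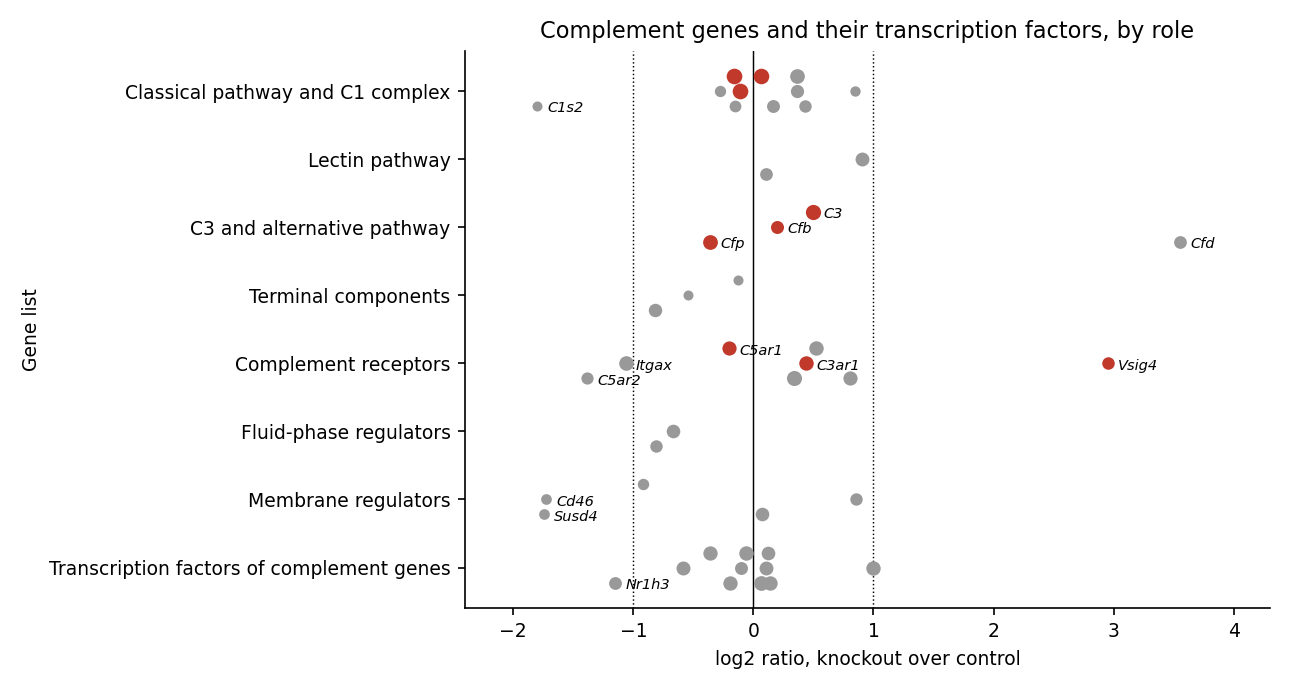
Log2 ratio, knockout over control, of complement genes and transcription factors with at least 50 reads over both libraries and reads in both, by gene list and without genes not reported here; red points are the 9 genes, grey points the others, point size grows with reads, and dotted lines mark 2-fold. Cfd at 3.55 and Vsig4 at 2.95 stand apart on the right, and Nr1h3, C5ar2, Itgax and the little-read C1s2, Cd46 and Susd4 lie left of -1.

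Transcription factors known to bind complement gene promoters were read beside them. Of 13 factors 2 were lower by at least 2-fold and 0 higher (median log2 ratio -0.06), beside 14.7% and 10.9% of all genes tested. All 13 had at least 1000 reads, and among genes of that depth the shares were 4.0% and 4.53%. Cebpb, a factor of acute-phase genes such as C3, was at 1.04 (0.959 to 1.13). Cebpa, named after its values were seen, was at 2.0 (1.76 to 2.27), just under the limit. Nr1h3, the liver X receptor alpha, had 1086 reads in the knockout library and 2373 in the control library, 2.23-fold lower (1.46 to 3.40).

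How the C1q chains compare with macrophage genes depended on the macrophage gene. Per read of the growth factor receptor gene Csf1r there were 4.53 reads of the C1q chains in the knockout library and 4.003 in the control library, a ratio of 1.13 (1.08 to 1.19). Per read of the mannose receptor gene Mrc1 there were 3.73 and 6.46 reads in the knockout and control libraries, a ratio of 0.578 (0.546 to 0.611). Against the 10 macrophage markers the interval lay above 1 for 4 (Ms4a7, Adgre1, Fcgr1 and Csf1r) and below 1 for 6, among them Trem2, Apoe, Mrc1, Cd68 and Mertk, over a range of 0.264 to 1.498. For C3 it lay above 1 for the same 4 and below 1 for 5, with a range of 0.393 to 2.23. For Cfp it lay above 1 for 1, below 1 for 6 and included 1 for 3, with a range of 0.218 to 1.23. Vsig4 lay above 1 against 9 of 10, from 2.16 to 12.2, and its interval included 1 only against Mertk.

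**Figure D4:**
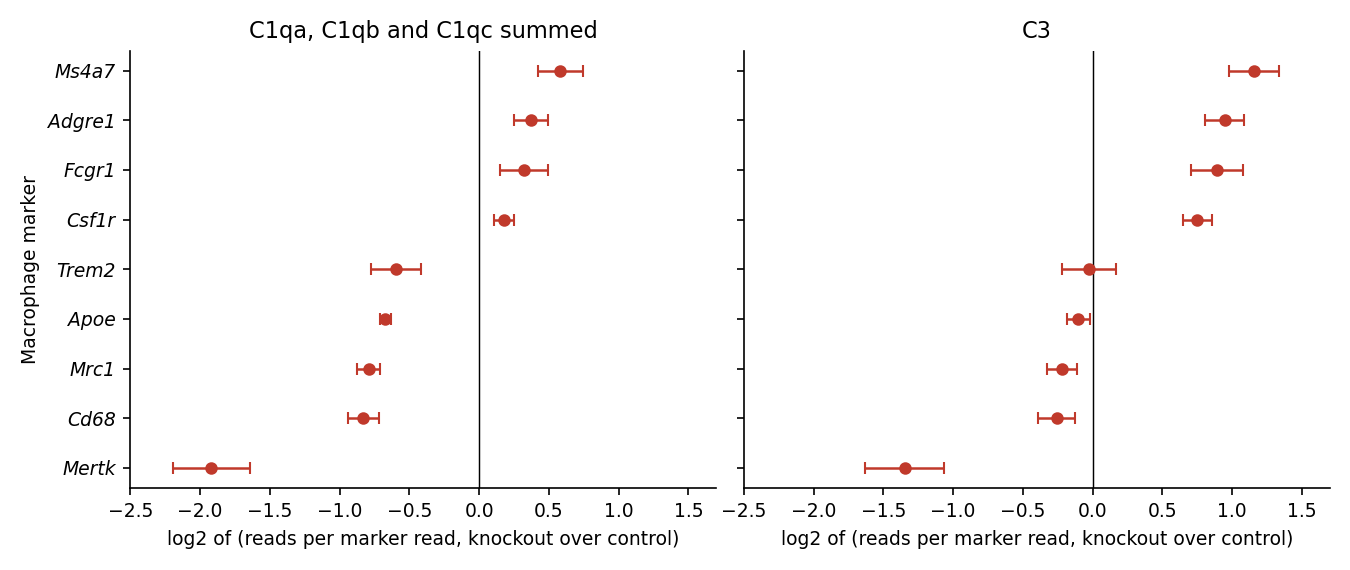
Reads of the summed C1q chains (left) and of C3 (right) per read of each of 9 macrophage markers, as the log2 of knockout over control, with 95% counting intervals (bars) from 1 pooled library per group. Points right of 0 are Ms4a7, Adgre1, Fcgr1 and Csf1r in both panels, and Mertk lies farthest left, at ratios of 0.264 and 0.393.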

How the data were processed

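Messenger RNA of CD11b+ tumour cells was sequenced from 2 groups with 1 pooled library each. Per the labels' protocols, an Illumina TruSeq kit that keeps strand was used. Cutadapt, HISAT2, featureCounts and GRCm38 are listed in the submitters' processing notes. The sources used here give neither the annotation nor the strand setting. The authors deposited whole-number counts of read 1 per Ensembl gene, per the file headers. They also deposited a table with a log2 fold change and its standard error per gene, and a normalised signal, which is the counts of each library divided by a constant.

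Symbols, coordinates and exon lengths came from GENCODE M21 (GRCm38), which matched 49326 of 49585 identifiers. Libraries were scaled with TMM factors (edgeR 4.0.16, R 4.3.3) of 0.976 for the knockout and 1.02 for the control library. Log2 ratios used a prior of 0.5 counts per library, over 14420 genes with at least 50 reads. With 1 library per group no test across genes was run, and at least 2-fold is a rule of size. Reads per fragment are the median count of genes with over 4 reads in 1 library and 0 in the other. Intervals of a ratio between 2 genes within a library are normal approximations on the log scale, on the same fragments. They and the Clopper-Pearson intervals cover counting error only. Ratios and intervals were tested on simulated data. The simulation used the same reads per fragment as the intervals, so it cannot show whether those values are right. Named genes are the 9 genes, Nrp2, Itgam and Csf1r as context, the 2 most counted members of each complement and transcription factor list, and members at least 2-fold apart with at least 1000 reads. The macrophage markers and Car3, the most counted adipocyte marker, are named as well. Genes named after their values were seen are marked so, apart from those named for 0 reads in both libraries. The members and lists were chosen with earlier results of these data known. Alternatives were other library scalings, scaling to macrophage genes, another prior, other read limits, undivided reads, reads per fragment 2 times as high and another gene length. A few genes of the lists enter the counts and sums but are not reported here by name.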

Additional observations from a re-analysis of the deposited data

How the results depend on the processing

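No paired analysis was possible because each group has 1 library, so no replicate could be left out either. The ratio of Vsig4 kept its direction and stayed past 2-fold under every scaling, prior and interval tried, and the counts of the 9 genes at least 2-fold higher or lower did not move. Scaling to the summed macrophage markers, of which Apoe gave 70.6% of the reads in the knockout and 65.3% in the control library, shifted every log2 ratio by -0.476. Under it C1qc stood at -0.417 and C3ar1 at -0.0363, both reversed, and 1 of the 9 genes had an interval above 1, instead of 4. Cfb changed sign under it too, from 0.196 to -0.279, and its interval included 0 under both scalings. Scaling to these markers without Apoe, chosen after seeing the data, put C1qc at -0.136. Scaling to Csf1r, also chosen after seeing the data, reversed C1qa (0.144), C1qb (0.0960) and C5ar1 (0.0556), and left 0 of the 9 with an interval below 1, instead of 4. C1qc was also reversed under total counts (-0.0103) and upper-quartile factors (-0.00114). These scalings move all genes by a constant, and which of them is right was not tested.

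The share of all genes at least 2-fold higher was 21.95% with any read and 7.09% with at least 200 reads, and the share at least 2-fold lower 8.42% with at least 200 reads. With at least 1000 reads 0 genes were at least 2-fold lower in the classical, lectin and membrane regulator lists, since the genes counted there had fewer reads. With DESeq2 size factors 1 transcription factor, Cebpa, was at least 2-fold higher. With the longest transcript as length C3 took place 5 and Cfp place 4 in the knockout library. Of the other values, 19 single-gene values moved without a change of direction, and 54 single-gene and 113 summary values stayed within their counting interval or within 1.5 times.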

Other observations

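Vsig4 was set beside other genes known in mouse as genes of resident tissue macrophages, a list of 10 written after the values were seen. Of the 9 with enough reads 2 were higher by at least 2-fold and 3 lower, beside 10.9% and 14.7% of all genes tested. Their median log2 ratio was 0.66, and the list did not go one way. Marco, a scavenger receptor, had 3432 reads in the knockout library and 1212 in the control library, 2.78-fold higher (1.82 to 4.41). Lyve1, a hyaluronan receptor, was 2.24-fold higher (1.69 to 3.00). Cd163, the haemoglobin scavenger receptor, was 1.93-fold higher (1.62 to 2.31) and Siglec1, a sialic acid receptor, 1.58-fold higher (1.37 to 1.82). Timd4, a receptor for phosphatidylserine, had 518 reads in the knockout library and 1392 in the control library, 2.74-fold lower (1.52 to 5.01). Cd209f, a C-type lectin, was 8.09-fold lower (5.81 to 11.5), and Folr2, a folate receptor, 1.45-fold lower (1.24 to 1.697). Cd5l had 98 reads in the knockout library and 265 in the control library. It was 2.75-fold lower, and 1 lies inside its interval of 0.637 to 13.3. Fcna, given above with the lectin pathway, was also in this list. Clec4f, a lectin of Kupffer cells, had 0 reads in both.

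Other cell types of the gate or the tumour were read from marker lists, as values only. Neutrophil markers summed to 1411 CPM in the knockout library and 1402 CPM in the control library. Of 9 with at least 50 reads 3 were higher by at least 2-fold and 1 was lower, beside 10.9% and 14.7% of all genes tested. Camp and Ly6g, named after their values were seen, had 18 and 96 reads in the knockout library and 0 in the control library. The intervals of both include 1, and Camp was under the floor of 72 reads in the knockout library. Fibroblast markers summed to 204 and 356 CPM in the knockout and control libraries, endothelial markers to 21.9 and 86.2 CPM, and epithelial tumour cell markers to 121 and 188 CPM. T cell markers summed to 55.4 CPM in the knockout library and 164 CPM in the control library, and B cell markers to 4.87 and 24.2 CPM.

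The authors' deposited table gives Vsig4 a log2 fold change of 2.96 with a standard error of 1.05. The authors' deposited table gives C3 0.504 with a standard error of 0.420, and C1qa -0.102 with one of 0.383. For the other 6 genes the authors' deposited table has log2 fold changes from -0.347 (Cfp) to 0.451 (C3ar1). All these values come from the same pooled libraries, 1 per group, so they are no independent check. Their standard errors cannot measure the spread between animals.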
